A study of Rattus norvegicus with 20 samples.

Results

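The genes described here build and load MHC class I molecules, which display peptides from inside a cell to CD8 T cells. They were chosen by symbol from a list of 10, of which 9 were found among the 17310 symbols of the expression table: the class I heavy chain gene RT1-A2, B2M, TAP1, TAP2, ERAP1, TAPBP, TAPBPL, CALR and PDIA3. NLRC5 was not analysed here. All 9 were among the 8858 genes that passed the filter on low values, a minimum of 1 FPKM in 4 or more libraries. FPKM is the number of fragments scaled by transcript length and by mapped fragments, so levels can be set side by side between genes.

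RNA came from microglia of male Sprague-Dawley rats aged 21 days, taken by CD11b immunopanning from brains without cerebellum and kept 5 days in medium without serum. The cultures then received, in a 50% change of medium, PBS as the control, 1 uM morphine, 1 ng/mL LPS (an agonist of Toll-like receptor 4), 1 ng/mL PAM3CSK4 (a lipopeptide agonist of the Toll-like receptor pair TLR2 and TLR1) or 100 ug/mL zymosan (yeast cell wall, sensed through TLR2 and dectin-1). There were 4 libraries in each of the 5 groups, and mean ± SD below is over n = 4. The labels give no source culture or animal for a library, so p-values measure the spread between these libraries, which may be technical. The cells were studied in culture, outside the brain, and the sources used here do not give the time from treatment to lysis.

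A class I molecule consists of a heavy chain and the light chain beta-2 microglobulin. Peptides made by the proteasome are pumped into the endoplasmic reticulum by the TAP1-TAP2 transporter, trimmed there by the aminopeptidase ERAP1, and loaded with the help of tapasin (TAPBP), the chaperone calreticulin (CALR) and the disulfide isomerase ERp57 (PDIA3). TAPBPR, the product of TAPBPL, is a relative of tapasin that edits the peptide outside the loading complex. Interferons raise most of these genes in many cell types, and microglia are known to carry low class I in the healthy brain and more in inflammation.

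The libraries differed in ways that the groups do not account for. Their summed FPKM lay between 306075 and 397357, and the read depth is unknown because the values are FPKM. After removal of group means, 1 principal component held 63.2% of the remaining variance and parted 7 libraries (replicate 1 of every group, Morphine 2 and LPS 2) from the other 13. Within groups the median tested gene was lower in the 7 by 0.36 on the log2 scale (log2 difference −0.36). ERAP1 (−1.14), TAPBP (−0.88), TAP1 (−0.80), PDIA3 (−0.56), TAPBPL (−0.40) and CALR (−0.33) were lower in the 7 in all 5 groups, whereas B2M was higher there in each group (0.45). Values with a term for this set, or within the 13, are therefore given where they change a call. The set was found in the same values, so calls made with its term may be too many.

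Markers of microglia and macrophages were abundant, with 16 of 17 symbols found and a summed level of 2895 to 3647 FPKM in PBS and 2743 to 3449 with morphine. The sum was 1802 to 2529 FPKM in the LPS libraries, 1863 to 2369.6 in those with PAM3CSK4, and between 2056 and 2689 with zymosan, and 11, 12 and 11 of the 16 markers were called lower. In bulk RNA fewer cells of a type and less RNA per cell cannot be told apart. Neuron markers summed to 2.90 to 6.59 FPKM in PBS, with 7 of 10 (SYT1, RBFOX3, SYN1, GAD1, SLC17A7, NEFL and STMN2) at 0 in every library. Their sum was 9.79 to 20.6 FPKM in the LPS libraries, 9.51 to 24.9 in those with PAM3CSK4, and between 11.8 and 25.5 with zymosan, mostly from the tubulin gene TUBB3. Astrocyte markers summed to 1.71 to 4.72 FPKM in PBS, mostly SLC1A3, with 3 of 9 (GFAP, AQP4 and SOX9) at 0 in all libraries. Lymphocyte markers summed to 19.4 to 42.5 FPKM in PBS, nearly all CD4 (mean 27.6 FPKM) and CD8A (1.98), with 8 of 13, CD3E and MS4A1 among them, at 0. CD8A was called lower with each agonist. Oligodendrocyte and precursor markers summed to 26.0 to 44.0 FPKM in PBS and 9.41 to 24.2 with LPS, with 3 of 11 (MAG, MOBP and SOX10) at 0, and CNP and CSPG4 were called lower with LPS and PAM3CSK4. Endothelial and mural markers summed to 11.1 to 30.5 FPKM in PBS and 8.64 to 20.8 with LPS, with 3 of 10 (CLDN5, KDR and RGS5) at 0. CDH5, TEK and PECAM1 were called lower with LPS and PAM3CSK4. FLT1 went the other way (log2 0.35, 1.01 and 0.91 with LPS, PAM3CSK4 and zymosan) and did not pass. After the rescaling described below, FLT1 was called higher with PAM3CSK4 (1.29, limma adjusted p = 0.00184) and zymosan (1.09, adjusted p = 0.00958). The part of these markers in the results below was not tested.

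With PBS the class I genes spanned a wide range of levels. B2M, at 940.0 ± 169.6 FPKM, had rank 33 of all genes in the table. The chaperone genes PDIA3 (216 ± 29.1 FPKM) and CALR (179 ± 14.9) and the heavy chain gene RT1-A2 (113 ± 17.5) followed. Both chaperones also fold many other glycoproteins. Tapasin was at 57.8 ± 8.37 FPKM, TAP1 at 29.5 ± 6.13 and ERAP1 at 17.5 ± 4.80. TAPBPL, at 3.77 ± 0.875 FPKM, and TAP2, at 3.2 ± 1.53, were the lowest. Neighbours in this order overlapped between PDIA3 and CALR (177 to 248 and 169.8 to 201 FPKM) and between TAPBPL and TAP2 (2.72 to 4.58 and 1.64 to 5.03 FPKM). Reads from near-identical class I heavy chain genes can be split between them by the counting, so RT1-A2 is uncertain.

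**Figure D1:**
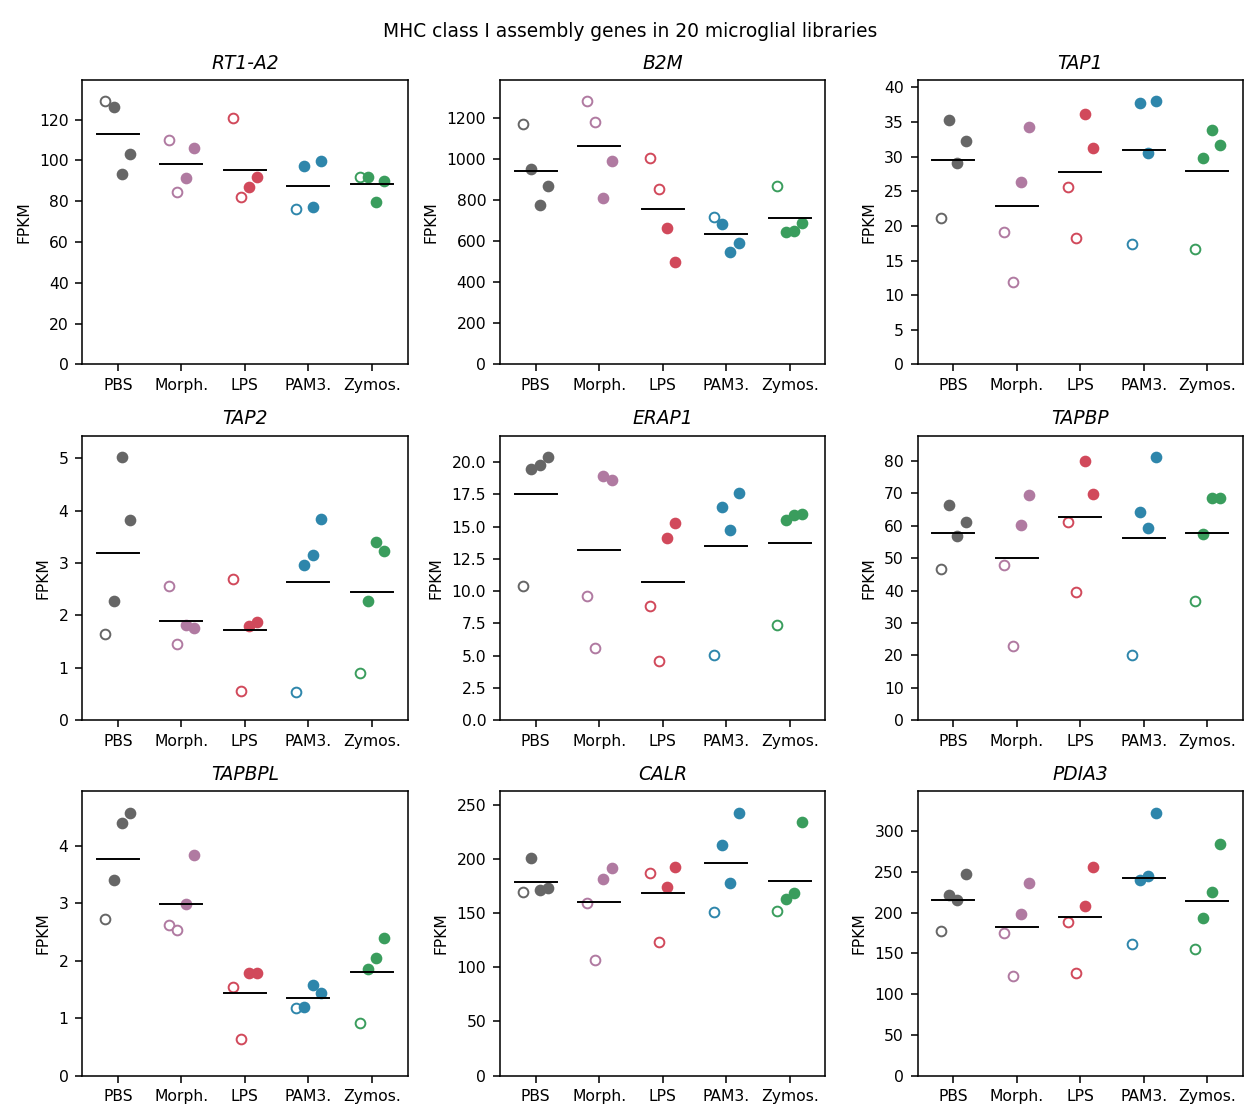
FPKM of each class I assembly gene (1 panel per gene, linear axis from 0) in the 4 libraries of each group; open circles are the 7 libraries that stood apart and black lines are group means. All 12 TLR agonist libraries lie below all PBS libraries for TAPBPL, at 2.39 FPKM or less against 2.72 or more.

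TAPBPL was called lower with each TLR agonist. It measured 2.72, 3.40, 4.40 and 4.58 FPKM in the PBS libraries and 1.55, 0.641, 1.79 and 1.78 FPKM with LPS. With PAM3CSK4 it measured 1.18, 1.19, 1.58 and 1.44 FPKM, and with zymosan 0.909, 1.85, 2.04 and 2.39 FPKM. Every agonist library was below every PBS library and below every morphine library, of which the lowest was at 2.53 FPKM. Group means with LPS, PAM3CSK4 and zymosan were 38.1%, 35.7% and 47.6% of the PBS mean.

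In log2(FPKM + 1) units, where the change of a low gene looks smaller than it is, TAPBPL fell by 0.98 with LPS (SE 0.21, limma adjusted p = 0.00135). The change with PAM3CSK4 was −1.01 (SE 0.21, limma adjusted p = 0.00116) and with zymosan −0.78 (SE 0.21, limma adjusted p = 0.0117). The PBS libraries were shared by these 3 comparisons. Since the median of all tested genes moved by −0.37, −0.27 and −0.18, the libraries were also rescaled by median ratios, and TAPBPL then changed by −0.69, −0.78 and −0.63 (limma adjusted p = 0.00447, 0.00183 and 0.0125). It was also called within the 13 libraries (−0.87, −1.09 and −0.73) and with any single library left out. TAPBPL and TAP2 are low genes, for which the counting error is unknown.

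TAPBPL alone of the 9 was called lower with LPS and with zymosan, and TAPBPL and B2M with PAM3CSK4; 0 of 9 were called higher. Over all 8858 tested genes, LPS had 27.3% called lower and 5.02% higher, PAM3CSK4 had 22.6% lower and 5.62% higher, and zymosan had 14.2% lower and 4.66% higher. After rescaling the split of all genes was 1200 lower and 1093 higher for LPS (2421 and 445 before), 1191 and 1069 for PAM3CSK4 (1998 and 498), and 811 and 734 for zymosan (1257 and 413). The share of members called lower was thus no larger than among all genes. With the replicate block, 3 members were called for PAM3CSK4, where 40.8% of all genes were, and 2 for zymosan, where 29.6% were. Groups did not overlap for 1 member with LPS (31.5% of all genes), for 2 with PAM3CSK4 (30.0%) and for 2 with zymosan (26.1%). The median change of the 9 was −0.25 with LPS, −0.26 with PAM3CSK4 and −0.28 with zymosan, against the −0.37, −0.27 and −0.18 of all genes.

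**Figure D2:**
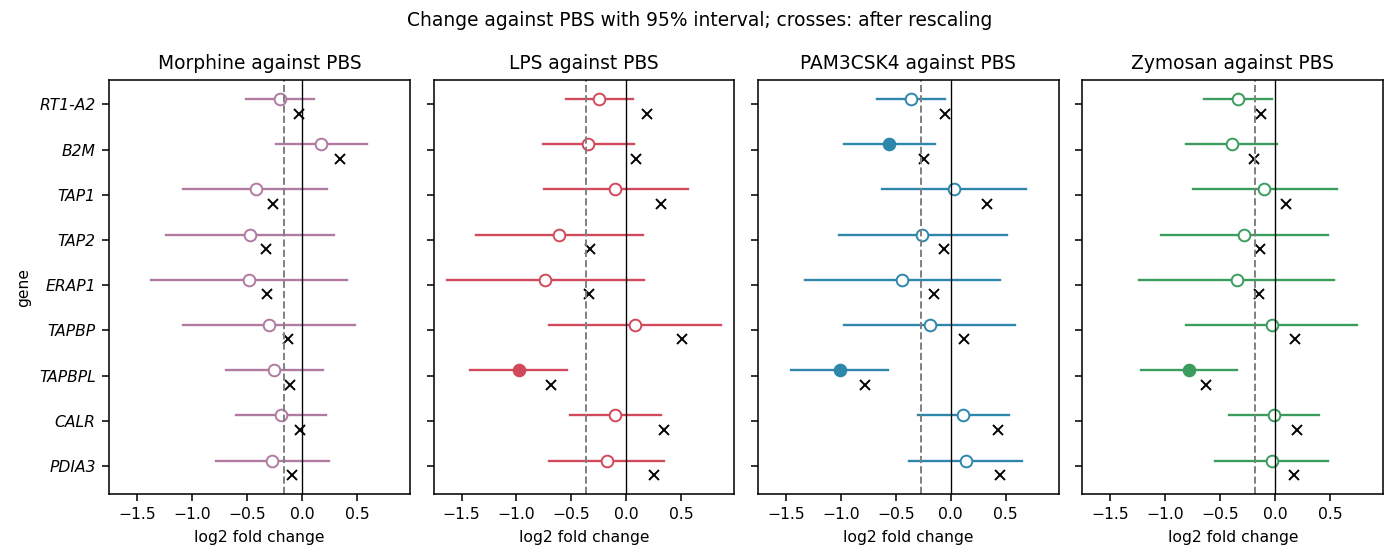
Log2 fold change of each gene against PBS (circles, filled where the adjusted p is under 0.05) with its 95% interval, by treatment; the dashed line is the median of all tested genes and crosses give the change after median-ratio rescaling. TAPBPL lies near −1 with LPS and PAM3CSK4, and after rescaling 6 of 9 genes lie above 0 with LPS.

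The 2 chains of the class I molecule were at or below their PBS level with the agonists. B2M, the light chain gene, measured 1171, 949, 774 and 866 FPKM with PBS and 718, 682, 546 and 592 FPKM with PAM3CSK4, so that all PAM3CSK4 libraries were below all PBS libraries. This fall, to 67.5% of the PBS mean, was called (log2 −0.56, SE 0.20, limma adjusted p = 0.0408). The call was lost after rescaling, alone (−0.24, limma adjusted p = 0.658) or with the set term (adjusted p = 0.0875), and without a filter on low values (adjusted p = 0.0605). It was also lost without any 1 of PBS 1, PBS 2, PBS 4, PAM3CSK4 2, PAM3CSK4 3 and PAM3CSK4 4 (adjusted p up to 0.122). Without rescaling it was kept with the replicate block (adjusted p = 0.000947), with the set term (adjusted p = 0.000338) and within the 13 libraries (adjusted p = 0.00626).

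With LPS, B2M measured 1005, 855, 662 and 500.0 FPKM, overlapping PBS (log2 −0.35, SE 0.20, limma adjusted p = 0.189). The 2 higher LPS libraries belong to the 7, and with a term for that set the change was −0.46 (adjusted p = 0.00193) and within the 13 libraries −0.58 (adjusted p = 0.00587). With zymosan B2M measured 866, 646, 647 and 689.7 FPKM (log2 −0.39, adjusted p = 0.192), which passed with the replicate block (adjusted p = 0.0154), with the set term (adjusted p = 0.00789) and within the 13 libraries (−0.38, adjusted p = 0.033). After rescaling, the values were 0.09 for LPS and −0.19 for zymosan, and neither passed (adjusted p = 0.877 and 0.794).

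RT1-A2, a classical heavy chain gene, measured 129, 126, 93.3 and 103 FPKM with PBS and 121, 82.2, 86.9 and 91.9 FPKM with LPS. With PAM3CSK4 it measured 76.0, 97.2, 77.3 and 99.8 FPKM and with zymosan 92.0, 91.9, 79.4 and 90.1 FPKM. The zymosan libraries were all below the PBS libraries, the others overlapped them. None of the changes (−0.25, −0.36 and −0.34 on the log2 scale) passed, with limma adjusted p = 0.214, 0.0757 and 0.124. The PAM3CSK4 change passed with the replicate block (adjusted p = 0.0305), with the set term (adjusted p = 0.0311) and without PBS 3 (adjusted p = 0.0435), and after rescaling it was −0.05.

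Genes of the peptide transporter were not called with any agonist. TAP1 measured 21.1, 35.3, 29.1 and 32.3 FPKM with PBS and 25.6, 18.3, 36.2 and 31.3 FPKM with LPS. It was at 17.4, 37.7, 30.5 and 38.0 FPKM with PAM3CSK4 and at 16.6, 29.8, 33.8 and 31.7 with zymosan. The groups overlapped, and the low libraries were those of the 7. The change was −0.10 with LPS (95% interval −0.75 to 0.56), 0.03 with PAM3CSK4 (−0.63 to 0.69) and −0.10 with zymosan (−0.75 to 0.56). After rescaling together with the set term, TAP1 was called higher with LPS (0.43, limma adjusted p = 0.0139) and PAM3CSK4 (0.33, adjusted p = 0.0443). With LPS, rescaling alone gave 0.32 and the set term alone 0.10, neither of which passed (adjusted p = 0.261 and 0.579).

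TAP2, the partner subunit, measured 1.64, 2.28, 5.03 and 3.83 FPKM with PBS. With LPS it was at 2.70, 0.560, 1.79 and 1.88 FPKM, the lowest group mean (1.73 ± 0.881). With PAM3CSK4 it was at 0.542, 2.97, 3.16 and 3.85 FPKM and with zymosan at 0.894, 2.28, 3.40 and 3.24. The groups overlapped, and the changes of −0.61, −0.26 and −0.28 on the log2 scale did not pass (limma adjusted p = 0.209, 0.658 and 0.695). Within the 13 libraries, with 2 from LPS, the LPS change was called (−0.69, adjusted p = 0.025).

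ERAP1, the trimming peptidase gene, measured 10.4, 19.5, 19.8 and 20.4 FPKM with PBS and 8.83, 4.59, 14.1 and 15.3 FPKM with LPS. With PAM3CSK4 it was at 5.03, 16.5, 14.7 and 17.6 FPKM and with zymosan at 7.39, 15.5, 15.9 and 16. Replicate 1 was the lowest or next to lowest library in each group, and the groups overlapped. The changes of −0.74, −0.44 and −0.35 did not pass over all 20 libraries (limma adjusted p = 0.196, 0.495 and 0.674). Within the 13 libraries no agonist library reached the lowest PBS library, and the changes of −0.41, −0.28 and −0.32 were called (adjusted p = 0.00366, 0.0165 and 0.0109). With the set term the LPS and PAM3CSK4 changes passed (−0.45 and −0.44, adjusted p = 0.0293 and 0.0309) and the zymosan change did not (adjusted p = 0.099). After rescaling of all 20, the values were −0.34, −0.15 and −0.15, and none passed (adjusted p = 0.464, 0.784 and 0.825).

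TAPBP, the gene of tapasin, was not called with any agonist. It measured 46.7, 66.5, 57.0 and 61.1 FPKM with PBS and 61.2, 39.6, 79.9 and 69.7 FPKM with LPS. With PAM3CSK4 it was at 20.2, 64.2, 59.2 and 81.3 FPKM and with zymosan at 36.8, 57.5, 68.7 and 68.6. The groups overlapped, and the changes of 0.08, −0.19 and −0.03 did not pass (limma adjusted p = 0.885, 0.757 and 0.977). Their 95% intervals were wide, from −0.70 to 0.86 with LPS. With rescaling and the set term together, TAPBP was called higher with LPS (0.63, adjusted p = 0.0157).

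The chaperone genes CALR and PDIA3 were not called with any agonist as tested. CALR measured 169.8, 201, 171 and 173 FPKM with PBS, 187, 123, 174 and 193 with LPS. It was at 151, 213, 178 and 243 FPKM with PAM3CSK4 and at 152, 163, 169 and 234 with zymosan. The low LPS library of both genes, LPS 2, belongs to the 7. PDIA3 measured 177, 222, 216 and 248 FPKM with PBS, 189, 126, 208 and 256 with LPS. It was at 161, 240.5, 245 and 323 FPKM with PAM3CSK4 and at 156, 193, 225 and 284 with zymosan. The groups overlapped for both genes, and no change exceeded 0.18 in size on the log2 scale. The 95% intervals for CALR were −0.51 to 0.32, −0.30 to 0.53 and −0.42 to 0.40. Those for PDIA3 were wider, at −0.70 to 0.34, −0.38 to 0.65 and −0.55 to 0.48. After rescaling, both were called higher with PAM3CSK4 (CALR 0.43, limma adjusted p = 0.0404; PDIA3 0.45, adjusted p = 0.0355).

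A ratio of FPKM values within a library does not depend on how that library was scaled. The ratio of TAPBP to TAPBPL FPKM was 12.9 to 19.5 with PBS and 9.0 to 20.2 with morphine. It was 39.2 to 61.7 in the LPS libraries, 17.1 to 56.6 in those with PAM3CSK4, and between 28.7 and 40.5 with zymosan. The LPS and zymosan libraries were above all PBS libraries, and PAM3CSK4 1, where TAPBP was low, was not. The ratio was tested with 1 FPKM added to both genes, which shrinks it where TAPBPL is low. With 1 FPKM added, a ratio does depend on how the library was scaled. In exact two-sided permutation tests of 4 against 4 libraries, this log2 ratio differed by 1.06 with LPS and 0.76 with zymosan (p = 0.0286 each, the smallest the test can give; adjusted p = 0.171 over 12 tests). With PAM3CSK4 it differed by 0.82 (exact permutation p = 0.143, adjusted p = 0.343). The plain FPKM ratio differed by 1.55, 1.27 and 1.10 on the log2 scale with LPS, PAM3CSK4 and zymosan (exact permutation p = 0.0286, 0.0857 and 0.0286, adjusted p = 0.171, 0.257 and 0.171).

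**Figure D3:**
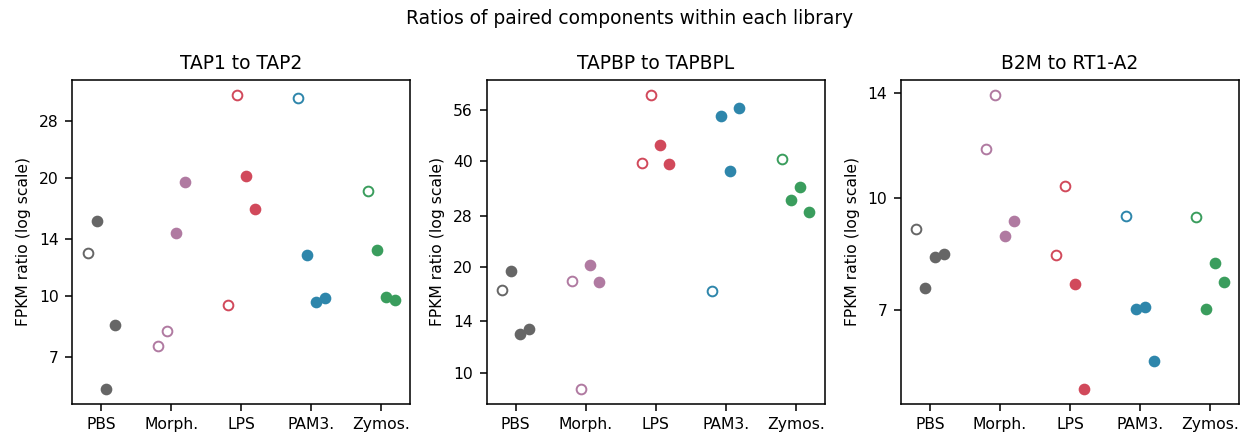
Ratio of FPKM values of paired components in each library (log axis), by group; open circles are the 7 libraries that stood apart. The TAPBP to TAPBPL ratio was at or above 28.7 in 11 of 12 agonist libraries and at or below 20.2 in the PBS and morphine libraries.

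The ratio of TAP1 to TAP2 was 5.79 to 15.5 with PBS. In the LPS libraries it was 9.48 to 32.6, in those with PAM3CSK4 9.66 to 32.1, and between 9.78 and 18.5 with zymosan, with overlap throughout (with 1 FPKM added, exact permutation p = 0.143, 0.371 and 0.571). The ratio of B2M to RT1-A2 was 7.51 to 9.07 with PBS. In the LPS libraries it was 5.44 to 10.4, in those with PAM3CSK4 5.94 to 9.45, and between 7.03 and 9.42 with zymosan (with 1 FPKM added, exact permutation p = 0.743, 0.257 and 0.657). With morphine this ratio was 8.85 to 13.9, higher by 0.37 on the log2 scale (exact permutation p = 0.0571, adjusted p = 0.229). None of the 12 ratio tests passed after adjustment.

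The promoter stretches of 4 members are shown because TAPBPL and B2M were called lower and TAP1 and TAPBP were not. RefSeq sequences of build GRCr8 were matched for 7 of the 9 members; each is the 250 bases before the annotated start, 5′ to 3′ on the gene's strand. Capitals mark matches on either strand to the interferon response element core (GAAA, 2 bases of any kind, GAAA), the kappaB-type site (GGG, 2 bases of any kind, TTTCC), or the Y box core GATTGG. These 3 occur in 3.41%, 1.30% and 13.3% of 33469 promoters of the same length. The motifs were chosen with the expression results known.
TAPBPL, chr4:159715138-159715387, minus strand: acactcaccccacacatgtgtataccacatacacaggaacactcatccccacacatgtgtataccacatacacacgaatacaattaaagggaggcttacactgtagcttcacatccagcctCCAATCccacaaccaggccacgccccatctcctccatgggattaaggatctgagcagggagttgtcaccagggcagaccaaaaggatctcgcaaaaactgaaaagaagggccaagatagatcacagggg
TAPBP, chr20:4967878-4968127, minus strand: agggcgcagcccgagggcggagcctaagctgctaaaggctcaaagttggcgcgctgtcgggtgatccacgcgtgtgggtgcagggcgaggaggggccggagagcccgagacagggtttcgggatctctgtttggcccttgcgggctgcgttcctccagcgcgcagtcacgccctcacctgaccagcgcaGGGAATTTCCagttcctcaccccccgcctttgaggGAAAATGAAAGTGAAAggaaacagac
TAP1, chr20:4668544-4668793, minus strand: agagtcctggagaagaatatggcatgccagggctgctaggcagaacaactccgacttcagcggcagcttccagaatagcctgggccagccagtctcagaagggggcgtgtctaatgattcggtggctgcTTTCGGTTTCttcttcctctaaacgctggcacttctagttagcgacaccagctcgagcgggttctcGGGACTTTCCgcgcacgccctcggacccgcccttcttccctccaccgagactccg
B2M, chr3:129549080-129549329, plus strand: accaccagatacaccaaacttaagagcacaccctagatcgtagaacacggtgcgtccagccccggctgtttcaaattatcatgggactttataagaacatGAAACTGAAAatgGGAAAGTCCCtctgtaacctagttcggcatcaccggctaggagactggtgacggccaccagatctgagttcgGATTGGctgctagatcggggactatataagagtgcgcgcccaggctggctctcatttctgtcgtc

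TAPBP held 2 overlapping interferon element matches, starting 26 and 20 bases before the start site, and 1 kappaB-type match at 61. TAP1 held 1 of each, at 121 and 55 bases, and B2M held all 3 motifs, at 150, 137 and 65 bases. TAP2 held 1 interferon element match at 41 bases. The TAPBPL stretch held the Y box core at 129 bases, and RT1-A2 and CALR held it at 56 and 219. The exact letters of the other 2 motifs were not in these 3 windows. Other forms of these sites were not searched for, so their absence is not shown. A match is a description of letters and no evidence of binding.

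Morphine left every member within the spread between libraries. Of the 9, 0 were called by limma and 0 had an unadjusted p under 0.05; over all genes 0% were called, with 104 genes at an unadjusted p under 0.05. The morphine and PBS libraries overlapped for all 9 members, against 1.04% of all genes whose groups did not overlap. B2M measured 1280.5, 1180.0, 810.1 and 988 FPKM with morphine (log2 0.17, 95% interval −0.24 to 0.59). TAPBPL measured 2.62, 2.53, 2.98 and 3.84 FPKM (−0.25, interval −0.69 to 0.19), and RT1-A2 109.8, 84.7, 91.5 and 106 FPKM (−0.20, interval −0.51 to 0.11). TAP1 measured 19.1, 11.9, 26.3 and 34.3 FPKM, with a wide interval of −1.08 to 0.23, and the 2 low libraries belong to the 7. ERAP1 had the widest interval, −1.37 to 0.41. The members' median change was −0.27, and that of all genes −0.16.

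The 3 agonists were not told apart by these genes. PAM3CSK4 against LPS, zymosan against LPS and zymosan against PAM3CSK4 each had 0 of 9 members called and 0 at an unadjusted p under 0.05, where limma called 0.0339%, 0.0903% and 0% of all genes. In zymosan against PAM3CSK4, 299 of all genes had an unadjusted p under 0.05. TAPBPL differed by −0.03 between PAM3CSK4 and LPS (95% interval −0.47 to 0.41), by 0.20 between zymosan and LPS (−0.24 to 0.64) and by 0.23 between zymosan and PAM3CSK4 (−0.21 to 0.66). These intervals do not exclude differences of up to 0.66 on the log2 scale. In the order of means, TAPBPL ran from PBS (3.77 FPKM) through morphine (2.99), zymosan (1.80) and LPS (1.44) to PAM3CSK4 (1.35), and the step from morphine to zymosan was the one without overlap between neighbours.

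Other genes of the class I route were counted from lists chosen with earlier results of these data known. Genes that supply peptides had 6 of 16 lower with LPS, 5 with PAM3CSK4 and 4 with zymosan (over all genes 27.3%, 22.6% and 14.2% were lower), and 0 higher. Their median changes were −0.49, −0.25 and −0.27, against −0.37, −0.27 and −0.18 for all genes. PSMB10, an immunoproteasome subunit, fell from 91.4 ± 16.3 FPKM to 26.7 ± 6.67, 21.6 ± 2.27 and 28.8 ± 4.60 with LPS, PAM3CSK4 and zymosan (log2 −1.76, −2.02 and −1.63, limma adjusted p = 2.02e-06, 4.52e-07 and 9.83e-06). PSMB9, which shares a promoter region with TAP1, fell by 0.84, 1.10 and 1.05, and PSME1, a proteasome activator subunit, by 0.90, 1.05 and 1.03 on the log2 scale. THOP1, a cytosolic peptidase, changed by −1.23, −1.02 and −0.83, of which the zymosan change did not pass (adjusted p = 0.134). After rescaling the counts were 3 lower and 2 higher with LPS, and 1 and 1 with each of the other agonists. PSMB10 then still passed with each agonist and THOP1 with LPS only. PSMB9 and PSME1 passed with none (lowest limma adjusted p = 0.136 and 0.0723).

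Other class I and class I-like heavy chain genes had 6 of 24 tested lower with LPS, 7 with PAM3CSK4 and 5 with zymosan, and 0 higher. With 27.3%, 22.6% and 14.2% of all genes called lower, these shares lie near the background. CD1D1, which presents lipids, fell from 19.9 ± 2.30 FPKM to 5.16 ± 2.31 with LPS and 4.25 ± 0.805 with PAM3CSK4 (log2 −1.85 and −2.0; −1.38 with zymosan). FCGRT, the heavy chain of the neonatal Fc receptor, fell by 1.15 with LPS and 0.87 with PAM3CSK4, and its zymosan value of −0.40 did not pass (limma adjusted p = 0.275). RT1-T24-1 fell by 1.52 and 1.27 with LPS and PAM3CSK4 and was at −1.18 with zymosan (adjusted p = 0.0668). RT1-T24-3 fell by 0.97 with zymosan (adjusted p = 0.0301) and did not pass after rescaling (−0.76, adjusted p = 0.0792). The RT1 members share near-identical sequence and are uncertain. After rescaling, 5, 4 and 3 were lower and 1 was higher with each agonist.

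Transcription factors of class I genes and related regulators had 8 of 23 lower with LPS, 8 with PAM3CSK4 and 5 with zymosan (over all genes 27.3%, 22.6% and 14.2% were lower), and 0 higher. IRF8, a myeloid interferon regulatory factor, fell by 1.09, 1.18 and 1.11 on the log2 scale. EZH2, a histone methyltransferase that is also high in dividing cells, fell by 1.53, 1.2 and 1.02. RFXAP, a subunit of the RFX complex, fell by 1.09 with PAM3CSK4 and did not pass after rescaling (−0.80, limma adjusted p = 0.0766). After rescaling 3, 5 and 4 were lower and 2, 3 and 1 higher.

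Interferon-stimulated genes and interferon signalling genes had 13 of 39 lower and 3 higher with LPS. For PAM3CSK4 the counts were 10 lower and 5 higher, and for zymosan 7 and 3. Over all genes 27.3%, 22.6% and 14.2% were lower and 5.02%, 5.62% and 4.66% higher. MX1, an antiviral GTPase, measured 54.5 ± 23.4 FPKM with PBS and fell to 15.7 ± 9.55 with LPS (log2 −1.81, limma adjusted p = 0.0148), and IFIT2 fell by 1.91. LGALS3BP fell by 1.18, 1.80 and 1.36, of which the LPS change did not pass after rescaling (−0.75, limma adjusted p = 0.0642). IFNB1, the interferon beta gene, rose from 0.664 ± 0.237 to 6.88 ± 2.72 FPKM with PAM3CSK4 (log2 2.19, adjusted p = 0.000384), and its changes of 0.68 with LPS and 0.62 with zymosan did not pass (adjusted p = 0.201 and 0.339). After rescaling 6, 5 and 3 were lower and 5, 8 and 4 higher, so the balance of this list depended on the scaling.

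CALR and PDIA3 act in the endoplasmic reticulum. Of 17 other folding and loading genes there, 2 were lower with each agonist (over all genes 27.3%, 22.6% and 14.2% were lower), and HSPA5, the chaperone BiP, rose with PAM3CSK4 (348 ± 78.3 to 827 ± 287 FPKM, log2 1.21, limma adjusted p = 0.00836). BCAP31 fell by 0.56, 0.62 and 0.54 and PRKCSH, a glucosidase subunit, by 0.55, 0.46 and 0.56. After rescaling 0 were lower and 3, 4 and 2 were higher: BCAP31 and PRKCSH did not pass with any agonist, and HSPA5 passed with each (1.07, 1.52 and 0.91). Among 18 targets of endoplasmic reticulum stress, 1 rose with LPS, 7 with PAM3CSK4 and 3 with zymosan (over all genes 5.02%, 5.62% and 4.66% were higher), and 0 fell. DNAJB9 rose by 1.12 with PAM3CSK4 and 0.63 with zymosan, and DDIT3, a stress transcription factor, by 0.99 with PAM3CSK4. ATF3, another such factor, rose by 0.71 with PAM3CSK4 and 0.70 with zymosan. After rescaling 9, 10 and 6 rose.

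Of 13 genes of the class II route, 5 passed the filter on low values, and those of the classical class II chains did not. Of the 5, 4 fell with each agonist, before and after rescaling (over all genes 27.3%, 22.6% and 14.2% were lower before it). RT1-DMA, which edits class II peptides, fell from 75.0 ± 10.6 FPKM to 8.62 ± 0.778 with LPS and 9.22 ± 1.09 with PAM3CSK4 (log2 −2.97 and −2.89; −2.5 with zymosan), and RT1-DMB by 2.37, 2.66 and 2.47. The lysosomal enzymes CTSS (−1.43, −1.43 and −1.17) and IFI30 (−1.36, −1.34 and −1.01) also fell. Of 10 checkpoint, co-stimulatory and related genes, 4, 4 and 3 rose (over all genes 5.02%, 5.62% and 4.66% did) and 0 fell, and 6, 6 and 7 did not pass. CD274, which encodes PD-L1, rose from 7.55 ± 2.34 to 37.3 ± 23.0 FPKM with LPS (log2 1.98, limma adjusted p = 0.00371), by 2.46 with PAM3CSK4 and by 2.77 with zymosan. IL10 rose by 1.66, 3.36 and 2.88 and CD40 by 1.39, 1.43 and 1.35, and CD86 rose by 1.01 with LPS and 0.98 with PAM3CSK4.

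**Figure D4:**
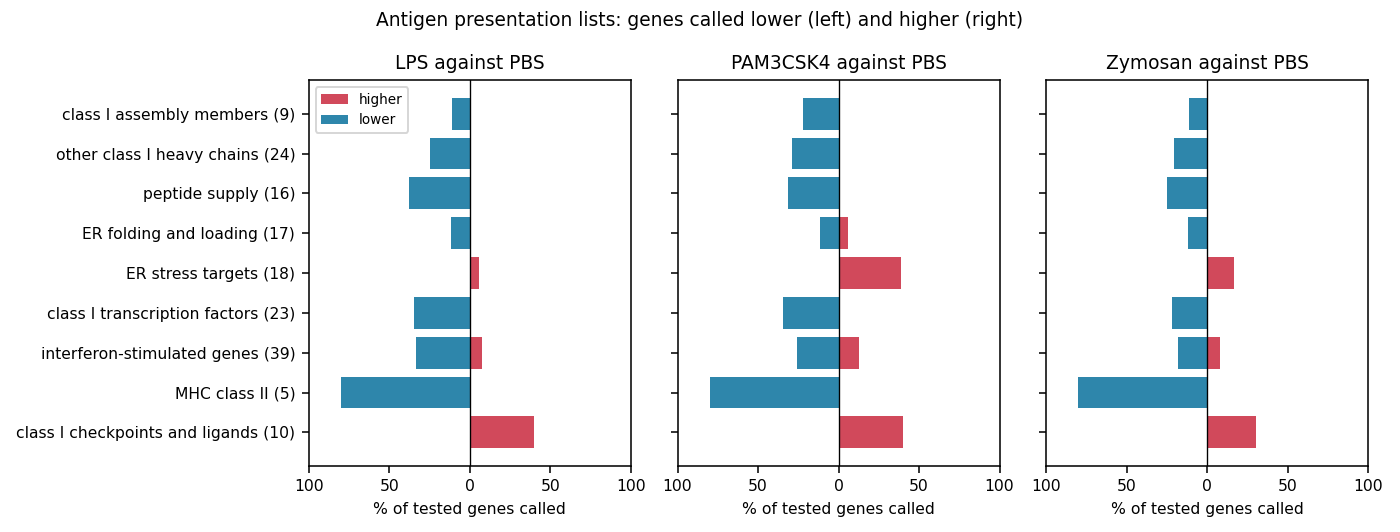
Share of the tested genes of each list (number in brackets) called lower (left of 0) or higher (right of 0) with each TLR agonist against PBS, before rescaling. Tested genes of the class II route, without the classical chains, had 4 of 5 lower with each agonist, class I assembly genes 1, 2 and 1 of 9.

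The genes most alike to the members with the widest range of group means were found by the root mean square difference of centred log2(FPKM + 1) values over the 20 libraries. For TAPBPL these were SLBP (0.14), which binds histone mRNA, PRKD3 (0.18), a protein kinase, and FBXO9 (0.19), an F-box protein. SLBP measured 47.2 ± 4.87 FPKM with PBS and 22.5 ± 4.78, 25.1 ± 4.38 and 28 ± 5.58 with LPS, PAM3CSK4 and zymosan. For ERAP1 they were MTMR2 (0.10), CMTR1 (0.11) and LGALS8 (0.12), and for B2M FXYD5 (0.14), NDUFB11 (0.15) and NDUFB8 (0.15). All genes were compared over the same libraries, the 7 included, and the likeness was not computed without them. The added 1 FPKM shrinks the changes of a low gene such as TAPBPL more than those of SLBP. Likeness on a scale without it was not computed.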

How the data were processed

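The authors deposited 1 table of FPKM values for 17310 gene symbols in 20 libraries, with no counts. Per the submitters' processing notes, featureCounts 1.4.6, DESeq2, Cufflinks 2.2.1 and HISAT2 2.0.5.1 were used with build rn6; the notes give no role or order, and the sources used here do not give the annotation. Per the labels' protocols, Smart-Seq2 and the Nextera XT kit gave the libraries. FPKM is relative to each library's total, so a large rise of some genes lowers all others.

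Values were tested as log2(FPKM + 1) over 8858 genes that reached 1 FPKM in 4 or more libraries, in 1 limma 3.58.1 fit of 5 group means (R 4.3.3, moderated variances with a trend), two-sided, with Benjamini-Hochberg adjustment over all genes within a contrast and a threshold of 0.05. Ratios were tested by exact permutation. On simulated data (LPS against PBS, 8858 genes, 200 changed) the fit recovered 56.0% of 2-fold and 85.0% of 4-fold changes, with 2.76% of calls false. The simulated noise was independent between genes, with no set of libraries that stood apart and no shift of most genes. These shares may therefore not hold for the real libraries. Plots were drawn with matplotlib 3.10.9 under Python 3.11.15.

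Members, lists and library sets were chosen with earlier results of these data known. Named genes are all members, up to 4 called genes per list with the largest change and a group mean of at least 5 FPKM, and the 3 genes most alike to each of 3 members. Of the genes this rule names, 1 is not reported here. Same-numbered libraries deviated together for PAM3CSK4 and zymosan against PBS and against each other. Correlations across genes were 0.37 or more, 0.32 or more and 0.53 or more over 4 pairs. These comparisons are called paired here, and those with morphine or LPS are not (lowest −0.28). The labels give no pairing. Replicate 1 of every group is among the 7 libraries that stood apart, and pairing cannot be told apart from that set. The main fit had no replicate block.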

Additional observations from a re-analysis of the deposited data

Results flagged for a closer look

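In 4 of 45 combinations of gene and group, 1 library lay far from the other 3 (its gap to the nearest of them took most of the group's range, Dixon's test); chance gives about 1 in 20. ERAP1 was low in PBS 1, at 10.4 FPKM against 19.5 to 20.4, and in Zymosan 1, at 7.39 against 15.5 to 16; both belong to the 7 libraries that stood apart. RT1-A2 was low in Zymosan 3, at 79.4 FPKM against 90.1 to 92.0. CALR was high in PBS 2, at 201 FPKM against 169.8 to 173.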

How the results depend on the processing

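The direction of a change was compared where it was called. Of 702 values of single members under alternatives, 666 kept their side of the threshold, 9 lost a call (all B2M with PAM3CSK4), 26 gained one and 1 reversed: TAP1 with LPS, −0.10 as tested, was called at 0.43 with rescaling and the set term together, an alternative added after the data were seen. TAPBPL kept its call with each agonist in every alternative run. With LPS, 1 member was called as tested, 4 with library weights, 3 with the set term, 4 within the larger set, 3 with rescaling and the set term, and 2 with the replicate block (B2M, adjusted p = 0.0199). With PAM3CSK4, 2 were called as tested, 1 without the filter, 4 with the set term, 4 with rescaling and the set term, and 1 to 3 with single libraries left out (3 without PBS 3, 1 without any of PBS 1, 2 and 4 and PAM3CSK4 2, 3 and 4). With zymosan, 1 was called as tested, 3 with library weights, 2 with the set term, 3 within the larger set and 2 with the replicate block. The block changed no other call of a member in the paired comparisons than those of B2M and RT1-A2 given above. Over all 8858 tested genes, LPS had 2866 calls (4641 with weights, 4340 with the block, 4458 with the set term). LPS calls were 4202 within the larger set and 3692 with rescaling and the set term. PAM3CSK4 had 2496 (4297 with weights, 4513 with the set term, 4279 within the larger set, 3799 with rescaling and the set term). Zymosan had 1670 (3497 with weights, 2619 with the block, 3366 with the set term). Zymosan calls were 3533 within the larger set and 2851 with rescaling and the set term. For PAM3CSK4 against LPS 3 genes were called (0 to 37 under alternatives), for zymosan against LPS 8 (3 to 183) and for zymosan against PAM3CSK4 0 (0 to 18), with 0 members in each. None of the 12 ratios was called with a pseudocount of 0.1 FPKM, with none (added after the data were seen) or paired by number. Pairing by number allows no p under 0.125. Read depth is unknown.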
